A study of Mus musculus with 4 samples.

Results

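Transcripts of the WNT system were examined in the epididymal fat pad, a visceral adipose depot, of male mice made obese on high-fat diet (HFD) with or without a break from it. WNT ligands are secreted lipid-modified proteins that need Porcn for their lipid and Wls for their export. They bind Frizzled receptors, with Lrp5 or Lrp6 as co-receptor on the branch that stabilises beta-catenin (Ctnnb1), which then acts with transcription factors of the TCF/LEF family, while other ligands act without beta-catenin on cell shape and calcium. R-spondins strengthen the response through Lgr receptors, and secreted antagonists of the Sfrp, Dkk and Wif families weaken it. In fat, WNT ligands of the beta-catenin branch, Wnt10b above all, are known to hold back the formation of adipocytes.

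The members were chosen by symbol: the genes named Wnt, Fzd, Dkk and Rspo with a number, Sfrp1 to Sfrp4, Axin1 and Axin2, symbols that begin with Tcf7, and Lrp5, Lrp6, Lgr4, Lef1, Porcn, Wif1, Wls and Ctnnb1. The rule found 53 of the 24421 genes in the deposited matrices, made up of 19 ligands, 2 genes of ligand secretion, 10 Frizzled receptors, 2 co-receptors, 5 R-spondin genes including the receptor Lgr4, 8 secreted antagonists and 7 intracellular genes. All mice were wild-type C57BL/6J males. Mice of the weight-cycling group (WC1) started HFD when they were 8 weeks old, ate it for 8 weeks, then lost weight on standard diet during 2 weeks and returned to HFD for the final 6 weeks. Mice of the high-fat control group (Ctrl) began HFD at an age of 10 weeks and ate it without a break for 14 weeks, so that both groups had 14 weeks of HFD and ended at 24 weeks. There were 2 RNA-seq libraries per group with 61465029 to 90965297 reads each. The labels do not say whether a library came from 1 mouse or from pooled mice, and the p-values measure only the spread between these libraries. As the tissue is a mixture of cells, fewer cells of a type and less RNA per cell cannot be told apart. Of the markers of the labelled tissue, all 8 adipocyte markers were detected, and of 6 genes of epididymal epithelium 5 were at 0 in every library.

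Members of the WNT system moved in both directions. In WC1 the receptor gene Fzd4 rose 2.12-fold, and the ligand genes Wnt5a, Wnt10b and Wnt8b, the R-spondin receptor gene Lgr4, the feedback gene Axin2 and the antagonist gene Sfrp4 were higher, whereas Fzd1, Fzd7, Dkk3 and Rspo4 were lower. The central genes Ctnnb1, Lrp6 and Wls were not called. Levels are given as CPM (counts of reads scaled to library size, here on the authors' own scaling), and a gene was called when the Benjamini-Hochberg adjusted p of limma, fitted across all tested genes on log2(CPM + 1), was under 0.05. Of the 53 members, 37 reached 0.5 CPM in at least 2 libraries and were tested. Among them 11 were called higher and 4 lower, 15 in all or 40.5% of those tested, compared to 17.9% of all 14106 genes tested (10.2% higher and 7.71% lower). Wnt10b, Wnt8b and Rspo4 passed the filter only through the group in which they were higher, so a difference was built into their selection. The WC1 libraries lay outside the range of the Ctrl libraries for 27 of the 37, 18 above and 9 below, against 69.3% of all genes tested. The log2 fold change was above 0 in 24 members and below 0 in 13, with a median of 0.30 compared to -0.02 over all genes. This median was 0.15 with a pseudocount of 4, 0.11 among members with a mean of 5 CPM or more, 0.17 without WC1 2 and 0.46 with edgeR on recovered reads.

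With 1 library left out, the spread comes from the other group alone, so these fits cannot show whether a call is stable. Effect sizes are given instead, and 0 of the 15 called members changed sign. Without Ctrl 1 and without Ctrl 2, Fzd4 was 2.18-fold and 2.07-fold higher in WC1. The log2 fold changes were then 0.63 and 0.67 for Lgr4, 0.93 and 1.03 for Wnt5a and 0.96 and 1.28 for Wnt10b. Without WC1 1 and without WC1 2, the log2 fold changes were 0.70 and 0.60 for Lgr4, 1.13 and 0.83 for Wnt5a and 1.12 and 1.11 for Wnt10b. In the authors' TPM matrix the median of all genes moved up by 0.12 on the log2 scale. The part of this shift in the calls that changed was not tested. In TPM, Fzd1, Fzd7 and Dkk3 were no longer called lower and Fzd3 no longer higher. DESeq2 on recovered reads called 13 members higher and 5 lower.

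**Figure D1:**
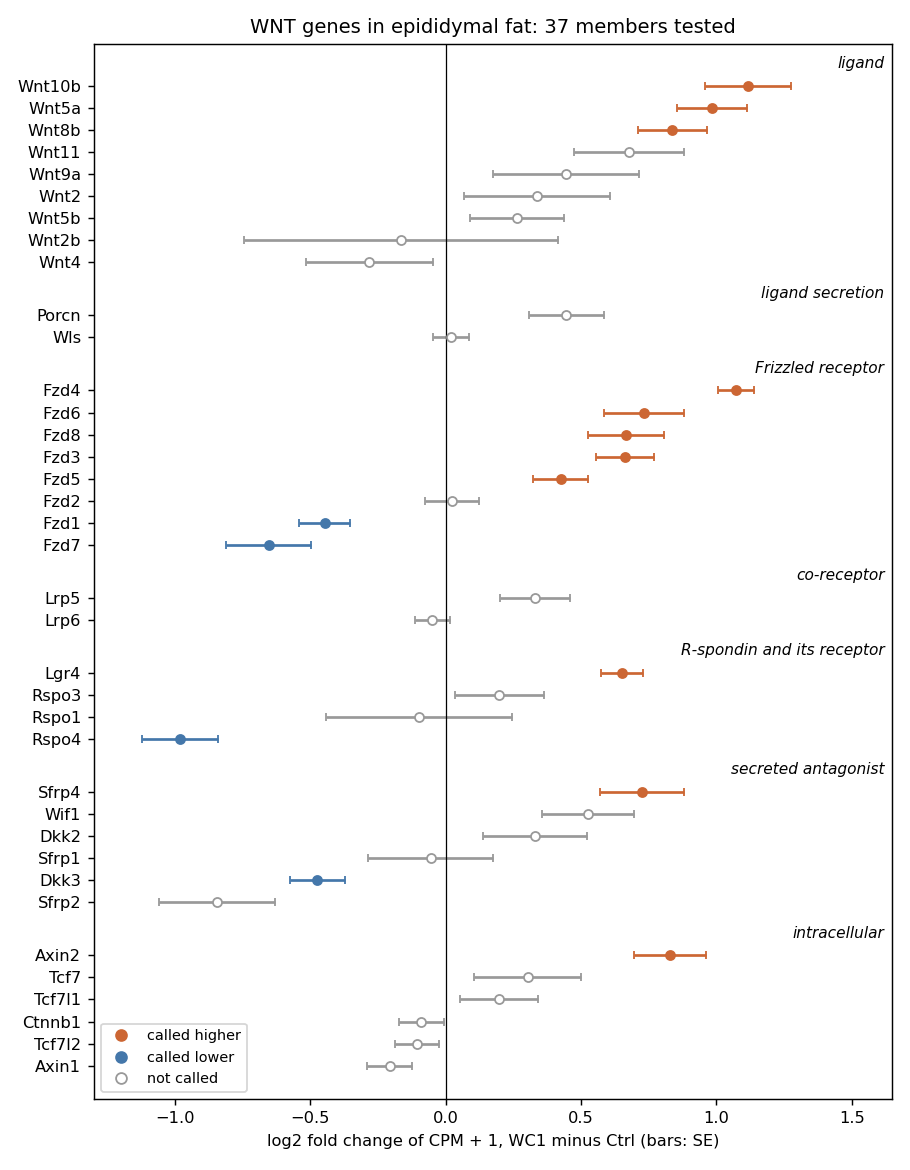
Log2 fold change of CPM + 1 (WC1 minus Ctrl, horizontal axis) of the 37 members tested, grouped by role, with standard errors as bars. Filled points mark the 11 members called higher and the 4 called lower, and open points the 22 that were not called. Frizzled genes lie on both sides of 0, from 1.07 for Fzd4 to -0.65 for Fzd7.

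Of the 10 Frizzled receptors, 8 were tested, and 5 were called higher (Fzd3, Fzd4, Fzd5, Fzd6 and Fzd8) and 2 lower (Fzd1 and Fzd7), beside 10.2% higher and 7.71% lower over all genes, with a median log2 fold change of 0.54. Fzd4, which serves WNT ligands and also the vascular ligand norrin, was at 61.2 and 58.1 CPM in Ctrl 1 and Ctrl 2 and 125 and 128 CPM in WC1 1 and WC1 2. The libraries of each group were close together and far from those of the other. This was a rise from 59.7 ± 2.19 to 127 ± 2.09 CPM (SD, n = 2 per group), 2.12-fold. The log2 fold change of 1.07 ± 0.07 (SE) had the smallest limma adjusted p among the members, 0.0066. The call was kept in every alternative that used all 4 libraries.

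Fzd1 and Fzd7 are receptors found in mesenchymal cells. Fzd1 was at 71.5 and 70.1 CPM in Ctrl and 55.9 and 47.7 CPM in WC1, a fall from 70.8 ± 0.927 to 51.8 ± 5.86 CPM (log2 fold change -0.45 ± 0.10, limma adjusted p = 0.040). Fzd7 was at 61.1 and 57.9 CPM in Ctrl and 43.8 and 31.9 CPM in WC1, with means of 59.5 ± 2.24 and 37.9 ± 8.44 CPM (log2 fold change -0.65 ± 0.16, limma adjusted p = 0.049). In both genes WC1 2 was the lowest library and WC1 1 lay between it and the Ctrl libraries. These calls depended on the processing: in TPM the log2 fold changes were -0.30 and -0.50 with limma adjusted p values of 0.074 and 0.077, and on recovered reads edgeR gave Fzd7 an adjusted p of 0.051. Without a filter neither gene was called. Fzd7 was also not called with a pseudocount of 4 or among genes with a mean of at least 5 CPM.

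The remaining called receptors were less abundant and rose by smaller amounts. Fzd5 was at 22.0 and 24.9 CPM in Ctrl and 33.5 and 30.2 CPM in WC1 (log2 fold change 0.42 ± 0.10, limma adjusted p = 0.049). This call was lost with a pseudocount of 4, without a filter and with a replicate block, although the labels do not pair the libraries. Fzd6 was at 5.80 and 4.44 CPM in Ctrl and 8.70 and 9.53 CPM in WC1 (0.73 ± 0.15, limma adjusted p = 0.035). Fzd8 was at 4.94 and 5.32 CPM in Ctrl and 7.74 and 9.82 CPM in WC1 (0.67 ± 0.14, limma adjusted p = 0.039). The groups did not overlap in any of these genes, and WC1 2 was the higher WC1 library for Fzd6 and Fzd8 but not for Fzd5. Without a filter the calls of Fzd6 and Fzd8 were lost (limma adjusted p = 0.067 and 0.073). Fzd3 was at 3.26 and 3.19 CPM in Ctrl and 5.80 and 5.58 CPM in WC1 (0.66 ± 0.11, limma adjusted p = 0.024), and was not called in TPM. Fzd2 was at 10.5 and 11.1 CPM in Ctrl and 10.5 and 11.5 CPM in WC1, with overlapping groups. Fzd9 and Fzd10 stayed at or under 0.229 CPM in every library and were not tested.

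Because TPM is corrected for transcript length, it allows the receptors to be set beside each other. In Ctrl, Fzd4, Fzd1 and Fzd7 were of like abundance, at 31.7, 31.2 and 24.3 TPM in Ctrl 1 and 30.4, 30.9 and 23.2 TPM in Ctrl 2. In WC1, Fzd4 stood alone at 70.7 and 74.7 TPM, followed by Fzd1 at 26.6 and 23.4 TPM and Fzd7 at 19.0 and 14.3 TPM. The sum over the 10 genes went from 105 and 103 TPM in Ctrl to 143 and 141 TPM in WC1. Fzd4 thus held 30.2% and 29.5% of Frizzled TPM in Ctrl and 49.5% and 53.0% in WC1, while Fzd1 went from 29.7% and 30.0% to 18.6% and 16.6%, and Fzd7 from 23.1% and 22.5% to 13.3% and 10.1%. Shares of a sum are tied to each other, so these are described and were not tested.

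**Figure D2:**
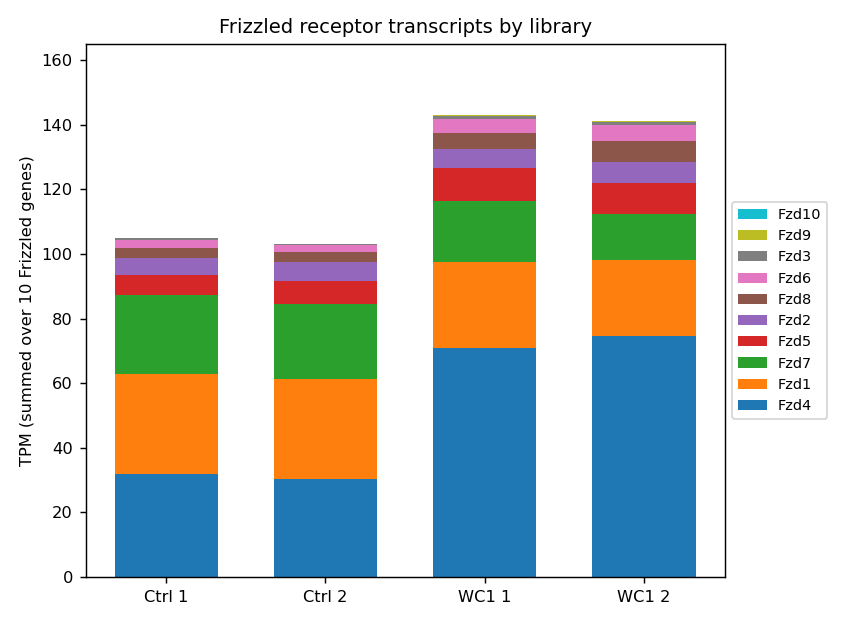
Summed TPM (vertical axis) of the 10 Frizzled receptor genes in each of the 4 libraries, with 1 colour per gene stacked from the most abundant at the bottom. The Fzd4 block grows from 31.7 and 30.4 TPM in the Ctrl libraries to 70.7 and 74.7 TPM in the WC1 libraries, and the whole bar from 105 and 103 to 143 and 141 TPM.

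To show the regulatory sequence behind genes that moved in opposite directions, the 250 bases upstream of the RefSeq transcription start are printed for Fzd4 and Fzd7 and for Axin2, a standard target gene of beta-catenin. All 3 lie on the plus strand of GRCm38.p6, at chr7:89404116-89404365 for Fzd4, chr1:59481897-59482146 for Fzd7 and chr11:108920099-108920348 for Axin2. Capitals mark matches on either strand to a TCF/LEF motif, searched as CTTTG with A or T in each of the next positions up to the seventh, and to a GC box, searched as GGGCGG, where neighbouring matches may overlap.
Fzd4: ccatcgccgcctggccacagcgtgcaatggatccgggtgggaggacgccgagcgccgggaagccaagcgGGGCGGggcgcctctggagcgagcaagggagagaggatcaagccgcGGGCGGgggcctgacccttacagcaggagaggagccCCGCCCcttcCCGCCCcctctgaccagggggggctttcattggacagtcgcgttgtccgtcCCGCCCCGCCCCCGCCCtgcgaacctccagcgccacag
Fzd7: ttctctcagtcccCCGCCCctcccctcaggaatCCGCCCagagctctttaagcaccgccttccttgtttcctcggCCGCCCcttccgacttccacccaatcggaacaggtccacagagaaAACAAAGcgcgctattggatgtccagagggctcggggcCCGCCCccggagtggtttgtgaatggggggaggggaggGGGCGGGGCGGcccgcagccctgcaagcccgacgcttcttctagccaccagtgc
Axin2: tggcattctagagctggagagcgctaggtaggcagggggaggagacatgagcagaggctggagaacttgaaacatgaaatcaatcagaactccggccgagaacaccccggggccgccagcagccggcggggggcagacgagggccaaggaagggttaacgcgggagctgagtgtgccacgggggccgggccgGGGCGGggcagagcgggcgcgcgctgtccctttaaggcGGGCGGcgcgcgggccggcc
The stretches are rich in G and C (72.8% for Fzd4, 65.2% for Fzd7 and 69.2% for Axin2). The Fzd4 stretch holds 7 GC boxes and no TCF/LEF match, that of Fzd7 holds 6 GC boxes and 1 TCF/LEF match, and that of Axin2 holds 2 GC boxes and no TCF/LEF match. Of the 24 tested members with a RefSeq promoter entry, 4 had a TCF/LEF match and 18 a GC box, and of the 9 called members with an entry 1 and 5 did. Among all 27025 genes with an entry, 16.8% had a TCF/LEF match and 35.4% a GC box in at least 1 promoter. Those entries include genes that were not tested here, so they are not a like background for the tested members. A match says only that these letters occur in this window.

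Among the ligands, 9 of 19 were tested, and 3 were called higher and 0 lower by limma, beside 10.2% and 7.71% of all genes. Of these 3, Wnt10b and Wnt8b passed the filter only through WC1. At an unadjusted p under 0.05 limma had 4 higher and 0 lower, and on recovered reads edgeR called 3 higher and DESeq2 4, both with 0 lower. Wnt5a, the main ligand of the branch that does not use beta-catenin, was the most abundant in TPM in every library. It was at 11.4 and 12.3 CPM in Ctrl 1 and Ctrl 2 and 21.8 and 27.2 CPM in WC1 1 and WC1 2. Each WC1 library was well above both Ctrl libraries. Its mean rose from 11.8 ± 0.614 to 24.5 ± 3.76 CPM, 2.07-fold (log2 fold change 0.98 ± 0.13, limma adjusted p = 0.018).

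Wnt10b, on chromosome 15 at 98770712 to 98778150, minus strand, GRCm38, had 9 and 36 reads in the Ctrl libraries and 106 and 110 in WC1. As CPM these were 0.132 and 0.414 against 1.74 and 1.75, so the Ctrl libraries differed from each other more than the WC1 libraries did. The ratio of the means was 6.39 (4.21 without Ctrl 1 and 13.2 without Ctrl 2), and the log2 fold change, which the added 1 CPM holds down at this level, was 1.12 ± 0.16 (limma adjusted p = 0.020). Wnt8b had 20 and 19 reads in the Ctrl libraries and 74 and 80 in WC1, or 0.292 and 0.218 CPM against 1.21 and 1.27 CPM. That was a 4.86-fold ratio (log2 fold change 0.84 ± 0.13, limma adjusted p = 0.023). Both ligands thus lay below the filter of 0.5 CPM in Ctrl and above 1 CPM in WC1.

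Wnt11, another ligand that mostly acts without beta-catenin, was at 3.03 and 4.31 CPM in Ctrl and 5.49 and 7.42 CPM in WC1. The groups did not overlap, but limma did not call the gene (log2 fold change 0.68 ± 0.20, adjusted p = 0.078), whereas DESeq2 on recovered reads did (adjusted p = 0.020). Wnt9a (0.45), Wnt2 (0.34), Wnt5b (0.26), Wnt2b (-0.16) and Wnt4 (-0.28) had log2 fold changes that did not pass the test, and in all of them the groups overlapped. Wnt5b reads cannot be told apart with certainty from those of Fbxl14, a gene on the other strand at 27.2 to 34.7 CPM, since the use of strand in the counting is not stated. Wnt2b and Wnt4 differed between the WC1 libraries, with 1.36 and 6.93 CPM for Wnt2b and 0.246 and 0.905 CPM for Wnt4. The summed TPM of the 19 ligands was 15.8 and 16.1 in Ctrl and 26.1 and 35.8 in WC1, of which Wnt5a made up 31.7% and 33.7% in Ctrl and 40.1% and 37.7% in WC1. Wnt3, Wnt3a, Wnt8a, Wnt10a and Wnt16 were at 0 in every library, where 3 reads would be 0.0345 to 0.0492 CPM, and Wnt1, Wnt6, Wnt7a, Wnt7b and Wnt9b stayed at or under 0.349 CPM.

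**Figure D3:**
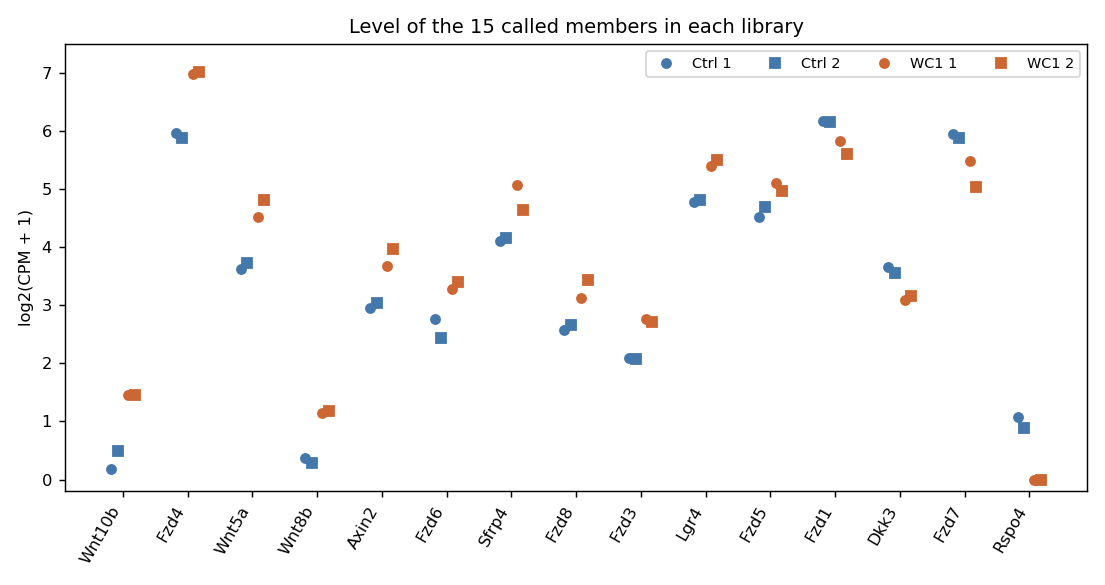
Level on the log2(CPM + 1) scale (vertical axis) of the 15 called members in each library, ordered by fold change from Wnt10b to Rspo4. Circles are library 1 and squares library 2 of each group, in blue for Ctrl and orange for WC1. The colours do not overlap in any of the 15 genes, and the gap is widest for Wnt10b and Fzd4 on the higher side and for Rspo4, at 0 in both WC1 libraries, on the lower side.

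The 2 genes of ligand secretion were not called by limma (1 had an unadjusted p under 0.05, and DESeq2 called 1). Wls, the carrier that takes ligands to the cell surface, was at 115 and 109.6 CPM in Ctrl and 114 and 113 CPM in WC1, with overlapping groups (0.02 ± 0.07 on the log2 scale, limma adjusted p = 0.86). Porcn, the acyltransferase that lipidates them, was at 6.42 and 5.70 CPM in Ctrl and 9.54 and 7.75 CPM in WC1. The Porcn groups did not overlap, but the difference missed the threshold (0.45 ± 0.14, limma adjusted p = 0.082), and in TPM it was called with an adjusted p of 0.040.

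Nor were the 2 co-receptors called by limma, edgeR or DESeq2 (1 had an unadjusted p under 0.05 in limma). Lrp6 was at 121 and 123 CPM in Ctrl and 119 and 117 CPM in WC1, close together in all libraries (log2 fold change -0.05 ± 0.06, limma adjusted p = 0.60). Lrp5 was at 54.3 and 60.8 CPM in Ctrl and 64.9 and 81.0 CPM in WC1, with WC1 2 apart from the rest (0.33 ± 0.13, limma adjusted p = 0.13).

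In the R-spondin group, the receptor and a ligand went in opposite directions. Lgr4, the R-spondin receptor that protects Frizzled from removal at the cell surface, was at 26.3 and 27.2 CPM in Ctrl and 41.0 and 44.2 CPM in WC1. The groups were far apart, and the mean rose from 26.8 ± 0.589 to 42.6 ± 2.28 CPM (log2 fold change 0.65 ± 0.08, limma adjusted p = 0.016). Rspo4, on chromosome 2 at 151842927 to 151874668, plus strand, GRCm38, had 76 and 74 reads in the Ctrl libraries and 0 and 0 in WC1. At 1.11 and 0.850 CPM in the Ctrl libraries it was at least 20.3-fold lower in WC1, against the level of 3 reads per library, and limma gave an adjusted p of 0.020. An antisense gene, Rspo4os, overlaps Rspo4 in the annotation and has no values here.

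Rspo1 was the most abundant R-spondin, at 14.2 and 10.7 CPM in Ctrl and 7.87 and 16.5 CPM in WC1. Its lowest and its highest library were both WC1 (log2 fold change -0.10 ± 0.34, limma adjusted p = 0.86). Rspo3 was between 0.563 and 1.03 CPM and was not called (0.20 ± 0.16), and Rspo2 was at 0 in every library.

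Of the 8 secreted antagonists 6 were tested, and limma called 1 higher and 1 lower, beside 10.2% and 7.71% of all genes (DESeq2 called 1 and 2). Sfrp4, a decoy receptor that adipose tissue secretes, was at 16.2 and 16.9 CPM in Ctrl and 32.7 and 24.0 CPM in WC1. Both WC1 libraries were above the Ctrl libraries, WC1 1 more so (16.6 ± 0.487 to 28.3 ± 6.13 CPM, log2 fold change 0.72 ± 0.16, limma adjusted p = 0.040). Dkk3, a divergent member of the Dickkopf family, was at 11.6 and 10.7 CPM in Ctrl and 7.54 and 7.99 CPM in WC1 (-0.47 ± 0.10, limma adjusted p = 0.039). Without a filter on low genes neither Sfrp4 nor Dkk3 was called, with adjusted p values of 0.070 and 0.071.

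Sfrp2, another decoy receptor made by stromal cells, was at 24.4 and 29.5 CPM in Ctrl and 11.7 and 17.9 CPM in WC1. Its groups did not overlap, and its difference was the largest of the members that were not called (-0.84 ± 0.21, limma adjusted p = 0.055). DESeq2 on recovered reads called it lower, with an adjusted p of 0.0034. Sfrp1 was at 34.3 and 30.7 CPM in Ctrl and 39.6 and 24.4 CPM in WC1, so that the WC1 libraries lay on both sides of Ctrl. Wif1 was at 0.760 and 0.862 CPM in Ctrl and 1.97 and 1.29 CPM in WC1 (0.52 ± 0.17, limma adjusted p = 0.093), and Dkk2 at 1.01 and 0.690 CPM in Ctrl and 1.66 and 1.02 CPM in WC1 (0.33 ± 0.19). Dkk1, which blocks Lrp5 and Lrp6, and Dkk4 were at 0 in every library.

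The rule on symbols leaves out a pair of relatives of Sfrp4, which were added after their values were seen. Frzb, the mouse name of Sfrp3, was at 5.95 and 4.09 CPM in Ctrl and 0.639 and 0.461 CPM in WC1 (log2 fold change -1.94 ± 0.19, limma adjusted p = 0.013). Sfrp5 was at 75.3 and 119 CPM in Ctrl and 278 and 352 CPM in WC1 (1.71 ± 0.24, limma adjusted p = 0.020).

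Of the intracellular genes 6 of 7 were tested and 1, Axin2, was called, a share of 16.7% beside 17.9% of all genes. Axin2 is part of the complex that degrades beta-catenin and is itself switched on by it. It was at 6.78 and 7.25 CPM in Ctrl and 11.8 and 14.7 CPM in WC1. The mean rose from 7.02 ± 0.330 to 13.3 ± 2.05 CPM, 1.89-fold (log2 fold change 0.83 ± 0.13, limma adjusted p = 0.024). Its constitutive relative Axin1 was at 48.1 and 53.0 CPM in Ctrl and 44.8 and 42.3 CPM in WC1 and was not called (-0.21 ± 0.08, limma adjusted p = 0.14).

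Ctnnb1 itself was at 478 and 466 CPM in Ctrl and 436 and 450.3 CPM in WC1, the highest level of any member in TPM as well (248 to 267 TPM). Its libraries lay close together (-0.09 ± 0.08, limma adjusted p = 0.46). Of the TCF/LEF factors, Tcf7l1 was at 20.0 and 26.2 CPM in Ctrl and 25.4 and 27.6 CPM in WC1 (0.20 ± 0.14), and Tcf7l2 at 17.8 and 17.7 CPM in Ctrl and 16.7 and 16.2 CPM in WC1 (-0.11 ± 0.08). Tcf7 was between 1.39 and 2.61 CPM (0.30 ± 0.20). These factors were not called by limma, edgeR or DESeq2, nor did they have an unadjusted p under 0.05 in limma, and Lef1, at 0.146 to 0.651 CPM, was not tested. Ctnnb1 and Tcf7l1 overlap other genes of the matrix in the annotation, so a share of their reads may be uncertain. These other genes were low, the highest being Ulk4 at 0.54 to 1.05 CPM for Ctnnb1 and Gm15401 at 0 to 0.27 CPM for Tcf7l1. The small values of Ctnnb1, Tcf7l2 and Lrp6 changed sign in TPM.

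The members were then read beside other genes of the pathway, 98 genes in 5 lists, of which 87 were tested. Limma called 17 higher and 2 lower, 21.8% of those tested, near the 17.9% of all genes, and the median log2 fold change was 0.01. The feedback and target genes of beta-catenin held more calls than any other list, 6 higher and 2 lower among 18 tested. At an unadjusted p under 0.05 limma had 7 higher and 6 lower, and on recovered reads DESeq2 called 6 and 4. Their log2 fold changes were above 0 in 9 and below 0 in 9. Cd44 (-0.58), Dact3 (-0.48), Bambi (-0.44) and Ccnd1 (-0.37) were below 0 without being called by limma. Nkd1, which dampens the signal at Dishevelled and is a target gene like Axin2, was at 20.5 and 23.1 CPM in Ctrl and 47.4 and 61.0 CPM in WC1 (1.27 ± 0.14, limma adjusted p = 0.015). Dact2 (1.36), Dact1 (0.60) and Cxxc4 (0.85), which also bind Dishevelled, the transcription factor gene Tbx3 (0.93) and the secreted factor gene Wisp2 (0.38) were higher, whereas the transcription factor genes Id2 (-0.79) and Ascl2 (-0.78) were lower. Ascl2, at 0.746 and 1.11 CPM in Ctrl and 0.131 and 0.111 CPM in WC1, passed the filter only through Ctrl, so that a difference was built into its selection.

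Among the membrane modulators, 4 of 12 tested genes were higher and 0 lower by limma (5 and 0 at an unadjusted p under 0.05, 4 and 0 by edgeR, 5 and 0 by DESeq2), beside 10.2% higher and 7.71% lower over all genes in limma. Tspan12, the tetraspanin that works with Fzd4 in norrin signalling, was at 62.1 and 73.6 CPM in Ctrl and 129.9 and 141 CPM in WC1. Its log2 fold change of 0.99 ± 0.11 (limma adjusted p = 0.014) stood beside 1.07 for Fzd4, while the norrin gene Ndp was not tested. Apcdd1 (1.68), a membrane inhibitor of WNT signals, the glypican gene Gpc4 (1.14) and Adgra2 (0.56), an endothelial co-activator of WNT reception, were also higher. For planar polarity and non-canonical signalling, to which Wnt5a belongs, 2 of 22 genes were higher, the formin gene Daam2 (1.19) and the cadherin gene Celsr2 (0.61), no more than the 10.2% of all genes. The destruction complex and Dishevelled had 1 of 17, the scaffold gene Amer1 (0.70), also below that share, and next in order was Apc2 (0.53, limma adjusted p = 0.051).

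The largest difference of the pathway lists was in a nuclear inhibitor. Ctnnbip1, whose protein keeps beta-catenin from binding TCF factors, was at 1.94 and 2.45 CPM in Ctrl and 40.6 and 48.6 CPM in WC1. Both WC1 libraries were far above Ctrl, 20.3-fold in the means (3.83 ± 0.14, limma adjusted p = 0.0035). The co-activator genes Bcl9l (0.71) and Tbl1x (0.39) and the co-repressor gene Tle1 (0.63) were also higher, so that limma called 4 of the 18 nuclear genes higher and 0 lower, beside 10.2% and 7.71% of all genes. By edgeR and DESeq2 0 were lower, and 4 were lower at an unadjusted p under 0.05 in limma.

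**Figure D4:**
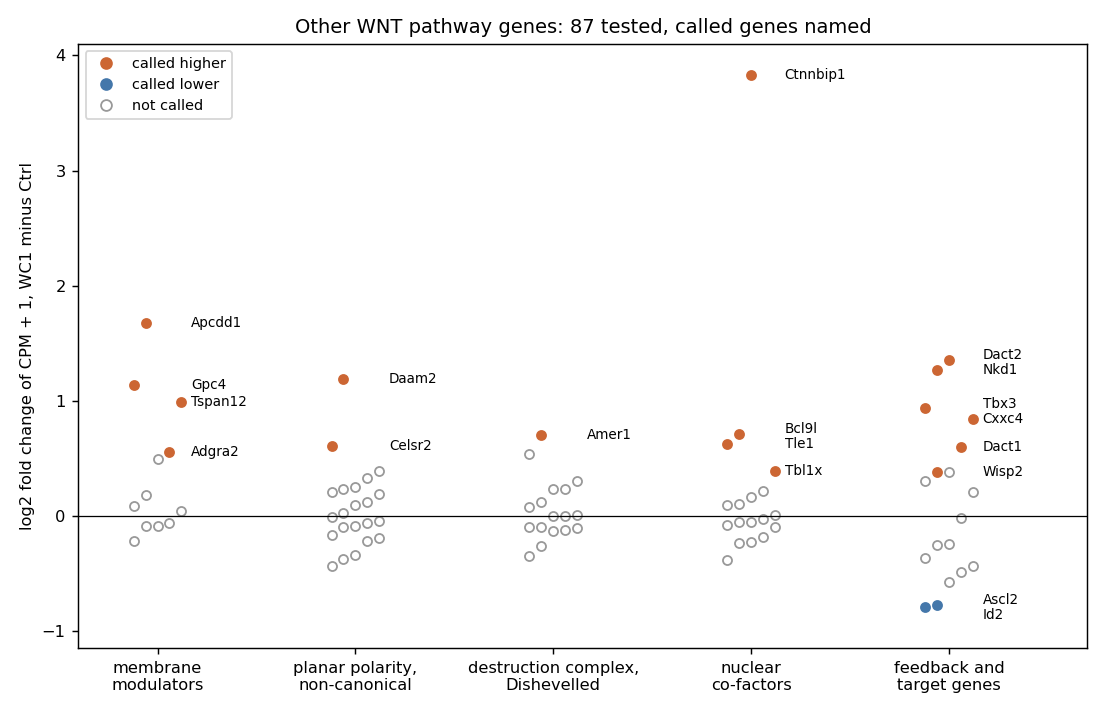
Log2 fold change of CPM + 1 (WC1 minus Ctrl, vertical axis) of the 87 other pathway genes tested, in 5 lists along the horizontal axis, where the position of points within a list has no meaning. Called genes are filled and named, 17 higher and 2 lower. Ctnnbip1 at 3.83 stands far above the rest, and most open points lie near 0.

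Markers of cell types moved between the groups along with several members. Endothelial markers, among which 5 of 7 were called higher, summed to 431 and 479 CPM in Ctrl and 902 and 1159 CPM in WC1, and adipocyte markers, 6 of 8 higher, to 10956 and 12409 CPM in Ctrl and 19905 and 25316 CPM in WC1. Fzd4 came to 142 and 121 CPM per 1000 CPM of endothelial markers in Ctrl and to 139 and 110.4 in WC1, with overlapping groups. Per 1000 CPM of adipocyte markers it came to 5.59 and 4.68 in Ctrl and 6.28 and 5.06 in WC1, where the groups overlapped as well. Markers of smooth muscle and pericytes were higher in 3 of 6, at 184 and 194 CPM in Ctrl and 295 and 382 CPM in WC1. B cell markers were higher in 1 of 4 by limma and 3 of 4 by DESeq2, and summed to 4.31 and 2.59 CPM in Ctrl and 7.24 and 26.4 CPM in WC1, with WC1 2 far apart. Of the 5 T and NK cell markers 0 were called in either direction by limma, edgeR or DESeq2, or had an unadjusted p under 0.05.

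Fibroblast and progenitor markers, 4 of 8 called lower, summed to 4331 and 4332 CPM in Ctrl and 3805 and 3119 CPM in WC1. Macrophage markers were called lower in 3 of 8 by limma and 7 of 8 by DESeq2, and the groups did not overlap in any of the 8. They summed to 11017 and 9961 CPM in Ctrl and 6335 and 4376 CPM in WC1. Mast cell markers were called lower in 3 of 4, at 277 and 309 CPM in Ctrl and 47.7 and 42.4 CPM in WC1. Per 1000 CPM of fibroblast and progenitor markers, Fzd1 came to 16.5 and 16.2 CPM in Ctrl and 14.7 and 15.3 CPM in WC1, Fzd7 to 14.1 and 13.4 in Ctrl and 11.5 and 10.2 in WC1, and Dkk3 to 2.68 and 2.48 in Ctrl and 1.98 and 2.56 in WC1. Sfrp2 came to 5.62 and 6.81 in Ctrl and 3.08 and 5.73 in WC1, and like Dkk3 it overlapped between groups. The ratio depended on the marker used: per CPM of Pdgfra alone, a marker called lower and chosen here after seeing the data, Fzd1 came to 0.711 and 0.726 CPM in Ctrl and 0.798 and 0.792 CPM in WC1, the opposite direction. Fzd7 then came to 0.6074 and 0.5997 in Ctrl and 0.625 and 0.530 in WC1, with overlapping groups. The part of cell composition in the members' differences was not tested.

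Mesothelial markers, 0 of 7 called by limma, edgeR or DESeq2 and 0 at an unadjusted p under 0.05, varied within the groups, at 126 and 94.0 CPM in Ctrl and 64.1 and 170.4 CPM in WC1. Rspo1 and Wnt2b had the same order of libraries, lowest in WC1 1 and highest in WC1 2, and Wnt4 was also lowest in WC1 1. The levels of all 3 genes differed more between the WC1 libraries than between the Ctrl libraries, as did the markers of this outer layer of the fat pad, whose part in them was not tested.

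**Figure D5:**
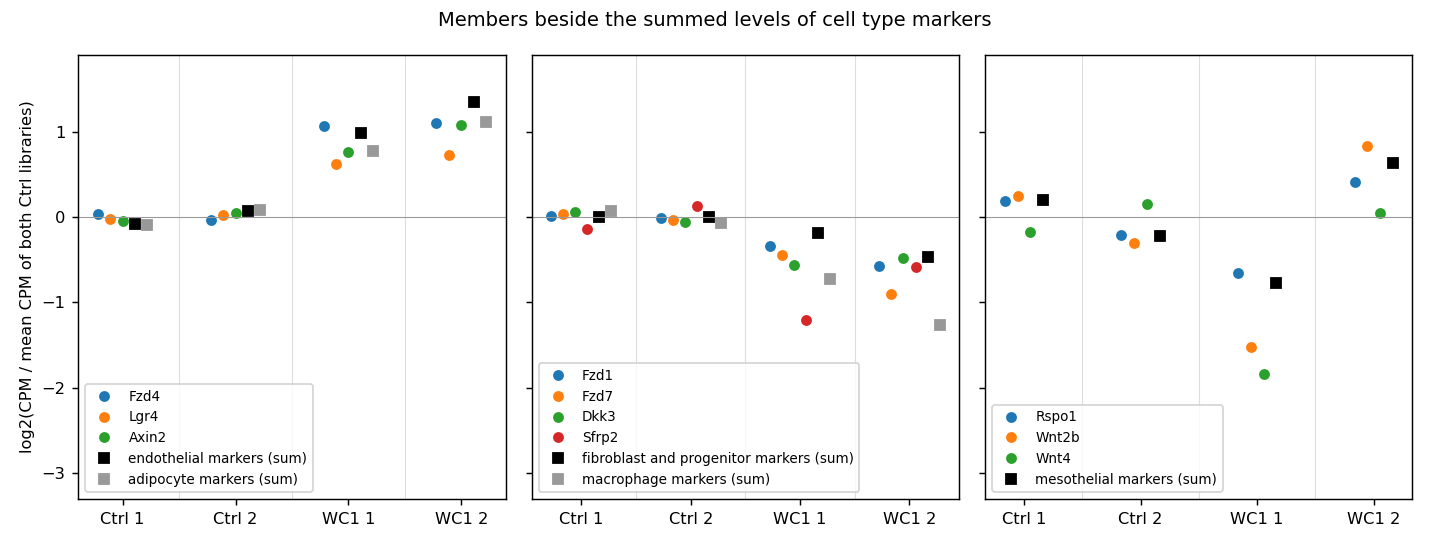
Level of selected members (circles) and summed level of cell type markers (squares) in each library, as log2 of CPM over the mean CPM of both Ctrl libraries (vertical axis). Fzd4, Lgr4 and Axin2 lie above 0 in both WC1 libraries like the endothelial and adipocyte markers, Fzd1, Fzd7, Dkk3 and Sfrp2 lie below 0 like the fibroblast and macrophage markers, and Rspo1 and Wnt2b follow the mesothelial markers from library to library.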

How the data were processed

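Poly(A) RNA of epididymal adipose tissue had been made into directional libraries, and 4 libraries (2 Ctrl, 2 WC1) were grouped by their titles. The submitters' processing notes name fastp, HISAT2, StringTie and the mm10 build, without versions or roles; no source used here gives the read counter or its use of strand. The authors deposited one matrix named CPM, treated here as a signal proportional to reads because its columns summed to 97.6% to 105% of plain CPM, and one in TPM, corrected for transcript length. In the first, 100% of values were whole multiples of 1 read to within 0.01 read, so reads could be recovered (61465029 to 90965297 per library, where 3 reads correspond to 0.0345 to 0.0492 CPM, for counting error only). No value column was left unused.

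Of 24421 genes, the 14106 that reached 0.5 CPM in 2 or more libraries (10315 removed) were compared on log2(CPM + 1), which understates changes of low genes, by limma 3.58.1 in R 4.3.3 (moderated variance with trend, two-sided, no block), adjusted by Benjamini-Hochberg over the 14106 genes, at a threshold of 0.05. Differences are taken as WC1 minus Ctrl with the model's standard errors, and levels have SD over 2 libraries. As alternatives, pseudocounts of 0.25 and 4, no filter, a mean of at least 5 CPM, median-of-ratios and TMM scaling, TPM, edgeR 4.0.16 and DESeq2 1.42.0 on recovered reads, a replicate block and leaving out each library were tried. On recovered reads edgeR called 11 members higher and 3 lower, and 17.6% of all genes. The scripts were tested on simulated data.

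Every tested member is named; those called, those averaging 10 CPM or more and those with no overlap and an absolute log2 fold change of at least 0.5 are given in every library. Called pathway genes are named, and the 2 with the smallest p of each list. The pathway lists (membrane modulators, planar polarity, destruction complex, nuclear co-factors, feedback and target genes) and the marker lists (adipocyte, fibroblast and progenitor, macrophage, endothelial, mesothelial, smooth muscle and pericyte, T and NK cell, B cell, mast cell, epididymis) were written by hand. The members and lists were chosen with earlier results of these data known. Gene positions are from GENCODE M21 (GRCm38) and promoters from RefSeq (GRCm38.p6); all 53 members were found in the former and 24 of the 37 tested members in the latter.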

Additional observations from a re-analysis of the deposited data

How the results depend on the processing

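Of 505 member values over 14 alternatives, 420 kept direction and side of the threshold, 48 lost and 19 gained a call, and 18 changed sign, 0 of them among the 15 called members. The members called higher and lower (11 and 4) were 7 and 1 without a filter, 8 and 2 for means of 5 CPM or more, 11 and 1 in TPM and 13 and 5 with DESeq2, where 7.28%, 19.8%, 18.7% and 27.4% of all genes were called, against 17.9%. The pathway genes (17 and 2) were 6 and 1 without a filter, 15 and 1 for means of 5 CPM or more, 16 and 1 in TPM and 19 and 5 with DESeq2. The members' median of 0.30 was 0.37 and 0.15 with pseudocounts of 0.25 and 4, 0.20 without a filter, 0.11 for a mean of 5 CPM or more and 0.46 with edgeR. With a library left out, 0 to 15 members were higher and 0 to 6 lower, 1 to 20 pathway genes higher and 0 to 12 lower (12 without WC1 1), and the median was 0.17 to 0.34, with 0.043% (without Ctrl 1) to 36.7% (without WC1 1) of all genes called. In TPM the signs of Tcf7l2 (0.026), Sfrp1 (0.079), Rspo1 (0.031), Ctnnb1 (0.050) and Lrp6 (0.088) changed, and with edgeR and DESeq2 that of Wnt2b (0.12 and 0.12). With a library left out, Wnt2 ranged from -0.049 to 0.72, Wnt4 from -0.59 to 0.025, Sfrp1 from -0.39 to 0.28, Rspo1 from -0.59 to 0.39, Fzd2 from -0.035 to 0.083, Wls from -0.016 to 0.052 and Wnt2b from -1.04 to 0.71. The replicate block called 13 members higher and 5 lower, and 18 and 3 pathway genes, with a median of 0.30, and of the 15 called members it kept 14, all but Fzd5, with 23.2% of all genes called; the labels do not say that the numbers pair libraries, and the correlation of deviations (r = 0.194 over 14106 genes, 2 pairs) cannot decide it. Apart from fewer libraries or other genes tested, the cause of these changes was not tested.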
